A study of Homo sapiens with 9 samples.

Results

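The events described here are alternative 5′ splice site (A5) and alternative 3′ splice site (A3) events, in which an intron starts or ends at either of 2 nearby positions, so that an exon is longer or shorter by the stretch between them. They were taken from the study's lists of changed splicing events as every A5 or A3 event listed for the DHX34 knockdown, the UPF1 knockdown or both. This gave 295 of 1456 listed events, 157 A5 and 138 A3, in 247 genes. The lists hold 99 of them for DHX34 and 242 for UPF1, with 46 in both, 53 for DHX34 alone and 196 for UPF1 alone. The members were thus selected on the same differences from the control that are given below, and those differences are a description without a test.

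RNA was sequenced from K562, a human erythroleukaemia cell line (spelled K652 in 1 label field), as poly(A) libraries from cells harvested on day 4 after transfection of siRNA. The 3 groups, of 3 libraries each, received a non-targeting siRNA pool (SCR), an siRNA pool against DHX34 or siRNAs I and II against UPF1, so the cells of all groups were transfected and the controls share the procedure. The study gives the libraries as biological replicates, and since these are bulk cultures, fewer cells of a type and less RNA per cell cannot be told apart. Both knockdowns left RNA of the target: DHX34 lay between 9.40 and 11 TPM in its knockdown against 18.2 to 19.4 in SCR, and UPF1 between 22.9 and 23.2 against 46.4 to 51.4. TPM is a transcript's abundance per length relative to all others. Library totals ran from 73478797 to 103625443 expected counts. The erythroid markers fixed for the line were present in every library, with GATA1 at 184 to 225 TPM and HBZ at 1037 to 2085 TPM, and of the markers of other lineages MS4A1 was at 0 and MPO at most at 0.0175 TPM, while LYZ reached 32.8 and EPCAM 80.4 TPM.

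A 5′ splice site is recognised by base pairing with U1 snRNA and in nearly all introns begins with GT, and a 3′ splice site ends in AG and is read by the U2AF proteins together with the pyrimidine tract before it. Where a pair of sites compete, the choice between them adds or removes a short stretch of exon, which either keeps the reading frame or shifts it. A shifted frame or an added stop codon can mark the transcript for nonsense-mediated decay (NMD), the pathway in which the RNA helicase UPF1 is a core factor and DHX34, another RNA helicase, has also been placed. In steady-state RNA a higher share of one form through splice site choice and through slower decay of that form cannot be told apart.

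The sites of 9 members are shown because the results turn on them, with coordinates on GRCh38. Each line reads 5′ to 3′ on the strand of the gene in lower case, and the capitals mark the GT or AG at the intron end. For 5′ sites 9 exon bases are followed by 12 intron bases, and for 3′ sites 20 intron bases by 9 exon bases. Pairs that lie 3 bases apart are shown in 1 line with both sites in capitals. A label of coding does not mean that every transcript with that site has a defined reading frame.
HIPK1 tandem 3′ sites, chr1:113966110-113966135, plus strand, coding: ttatgtgtgtttccttacAGcAGgcg
HCFC1 tandem 3′ sites, chrX:153952156-153952181, minus strand, coding: tgtttctctcgaccctggAGcAGgca
HUWE1 5′ site of the longer exon, chrX:53543829-53543849, minus strand, coding: gcagcaacgGTtagcatgatg
HUWE1 5′ site of the shorter exon, chrX:53543874-53543894, minus strand, coding: atacaaatgGTacgtgagggt
SHMT2 3′ site of the longer exon, chr12:57232405-57232433, plus strand, coding: ctgccctgcttccttctcAGggctttagc
SHMT2 3′ site of the shorter exon, chr12:57232463-57232491, plus strand, coding: gcctcattgactacaaccAGctggcactg
CDKN2AIP 5′ site of the longer exon, chr4:183445657-183445677, plus strand, coding: gtagcaatgGTtagcagatca
CDKN2AIP 5′ site of the shorter exon, chr4:183445626-183445646, plus strand, coding: gttgccaagGTgaagaaaaga
TOE1 3′ site of the longer exon, chr1:45342715-45342743, plus strand, transcripts without a defined reading frame: agctcctaccatgtgcccAGgcagtgttt
TOE1 3′ site of the shorter exon, chr1:45342823-45342851, plus strand, coding: accctcttgcgctgttgcAGtgaacggga
SNHG8 5′ site of the longer exon, chr4:118279129-118279149, plus strand, long non-coding RNA: agccagatgGTgagtaataac
SNHG8 5′ site of the shorter exon, chr4:118278784-118278804, plus strand, long non-coding RNA: taggtgaaaGTacgtagttgt
RPS12 5′ site of the longer exon, chr6:132815216-132815236, plus strand, retained-intron transcript: taggaaaagGTatcagaactc
RPS12 5′ site of the shorter exon, chr6:132815080-132815100, plus strand, protein-coding transcript: cttagacaaGTacgtgtatca
RPL22L1 3′ site of the longer exon, chr3:170868193-170868221, minus strand, NMD-annotated transcripts: aacctaagctctattcctAGggtaccttc
RPL22L1 3′ site of the shorter exon, chr3:170868126-170868154, minus strand, protein-coding transcript: ttttttctgttttaaaatAGgagcaattt

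For every event the percent spliced in (PSI) is the share of the form with the longer exon, computed per library from the TPM of the transcripts that carry each of the 2 introns. Both introns were found in the annotation for 288 members. The 7 others, in NAMPT, PMS2P3, WASH2P, WASH3P (3 events) and SNHG8 (an A3 event), have no value here. A PSI in every library and a mean of at least 1 TPM over both forms were reached by 284 members in 240 genes, and of the 4 that fell short PSME2 and MBD2 lacked a PSI in at least 1 library and RNASEK-C17orf49 and HDAC4-AS1 were under the limit. The same filter kept 17873 annotated A5 and A3 events in all, against which the members are set. In 153 of the 284 members (53.9%, against 39.5% of all events) some pair of transcripts, 1 of each form, differed in no other intron. In the rest the forms always differed elsewhere too. PSI is thus a share of whole transcripts, and wording on the use of a site below refers to this share. The median member had 37.1 TPM over both forms, and 240 had at least 10 TPM.

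The distance between the 2 sites was set beside that of all measured events. Among the 152 measured A5 members the median was 113.5 bases against 94 over all 8660 A5 events, and among the 132 A3 members it was 49 against 47 over 9213. A distance divisible by 3, which keeps the reading frame within coding sequence, was found in 27.0% of A5 members and 35.6% of all A5 events. For A3 the shares were 38.6% and 43.4%. Where the stretch overlaps coding sequence, they were 32.8% of 64 A5 members and 42.6% of such A5 events, and 46.25% and 49.8% for A3. By list, the share of A5 members was 21.6% for UPF1 alone, 34.5% for DHX34 alone and 42.9% for both. Sites over 200 bases apart made up 10.6% of A3 members and 17.8% of all A3 events. These shares were not tested. The 14 A3 members with sites 3 bases apart, 10.6% of A3 members against 10.3% of all A3 events, had an AG at both positions. Of these, CDK12, SBNO1 and DNM2 are given with values, chosen after these were seen. CDK12, a kinase of RNA polymerase II, used the first AG at 71.1%, 64.5% and 68.9% in SCR, 58.8%, 55.8% and 55.6% with DHX34 siRNA and 59.6%, 55.4% and 59.3% with UPF1 siRNA. SBNO1 went the other way, from 52.9%, 58% and 55.8% to 66.5%, 68.3% and 67.4% and to 64.7%, 67.6% and 66.4%. DNM2, the GTPase dynamin 2, had 79.7%, 76% and 81.1% in SCR, 70.7%, 68.8% and 69.8% with DHX34 siRNA and 70.8%, 66.6% and 68.9% with UPF1 siRNA. In all 3 genes the knockdown libraries lay apart from SCR and overlapped each other. Among the tandem AG members listed for UPF1 the first AG was used more in 7 of 11 with UPF1 siRNA, and among those listed for DHX34 in 3 of 8 with DHX34 siRNA.

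**Figure D1:**
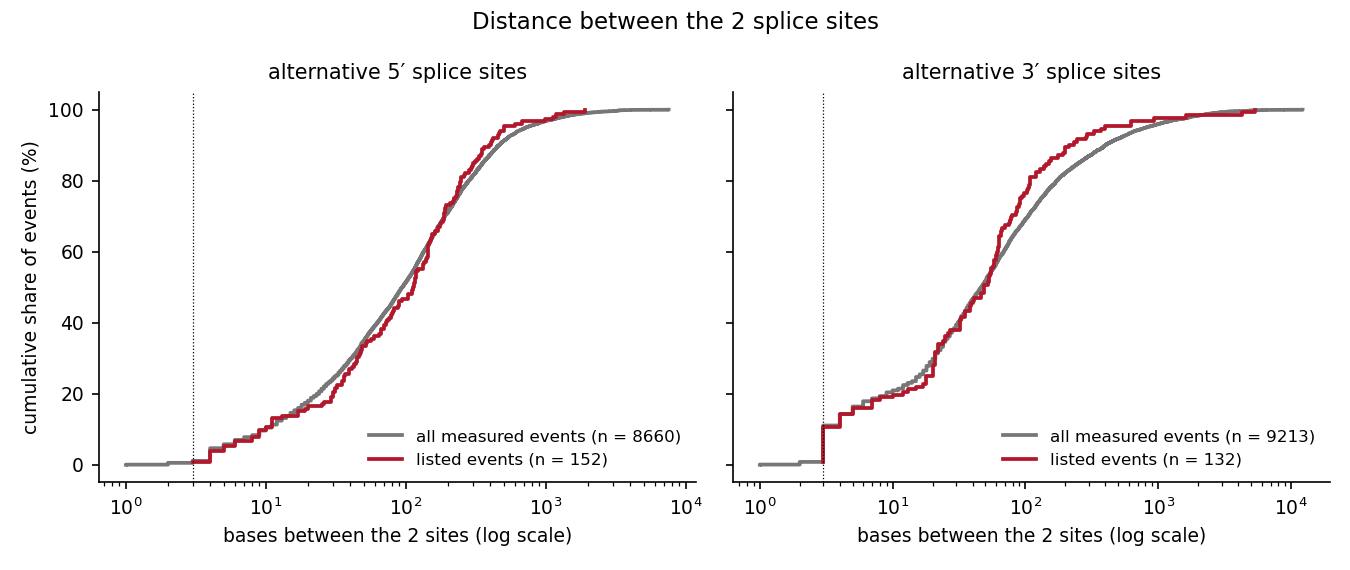
Cumulative share of events (%) against the number of bases between the 2 splice sites on a log axis, for listed events (red) and all measured events (grey), A5 on the left and A3 on the right, with a dotted line at 3 bases. The A5 lines cross repeatedly, the red A3 line lies above the grey one at long distances, and both A3 lines step up at 3 bases, where 10.6% of the listed and 10.3% of all A3 events lie.

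By position, 144 of the 284 members had a stretch that overlaps coding sequence of at least 1 transcript of the gene. That transcript need not carry the longer form. In 42 the stretch lies only in untranslated sequence of a coding transcript. In 98 (34.5%, against 21.9% of all measured events) it lies in an exon of no transcript annotated as protein-coding. The last kind made up 80 of the 186 members listed for UPF1 alone, 8 of 52 listed for DHX34 alone and 10 of 46 listed for both. Long non-coding RNA genes held 22 members, 7.75% against 3.85% of all events. Both sites had the canonical GT or AG in 95.8% of members and 95.5% of all events, and 11 A5 members used a GC site, among them LRBA, where the longer exon ends at GT and the exon that is 3 bases shorter at GC.

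The strength of each site was scored as log2 odds against equal base shares, with weights from all annotated introns, over 3 exon and 6 intron bases for 5′ sites and 20 intron and 3 exon bases for 3′ sites. SHMT2 had a strong site for the longer exon (score 10.8, with a pyrimidine-rich tract in the sequence above) and a weak one for the shorter exon (1.51), and the weak site carried the larger part of the RNA in SCR. CDKN2AIP scored 4.84 for the longer and 7.39 for the shorter exon, and HUWE1 4.42 and 7.36. Across the 284 members the difference in score had a Spearman correlation of 0.22 with the PSI in SCR, and across all 17873 events one of 0.41. The points share libraries and, in part, genes, and the values are descriptive.

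The 2 knockdowns were each set against SCR and against each other, the question being which splice site choices change when either factor is reduced. Of the 98 measured members listed for DHX34, 51 had a higher PSI and 46 a lower PSI in that knockdown, with a median size of 10.4 points. The knockdown and SCR libraries did not overlap in 68 of these 98, beside 12.3% of all measured events. Of the 232 measured members listed for UPF1, 150 had a higher and 82 a lower PSI with UPF1 siRNA, with a median size of 10.5 points. Groups did not overlap in 204 of the 232, beside 18.8% of all events. Over all events the median size was 1.07 points for DHX34 and 1.37 points for UPF1. Since the lists were chosen on these contrasts, nothing is read from the excess. By position, the PSI with UPF1 siRNA was higher in 57 of 113 members in coding sequence, 15 of 29 in untranslated sequence and 78 of 90 outside protein-coding transcripts. For the members listed for DHX34 the counts with DHX34 siRNA were 29 of 61, 8 of 19 and 14 of 18. Over all measured events the PSI was higher with DHX34 siRNA in 49.1% of A5 and 46.4% of A3 events. With UPF1 siRNA it was higher in 49.2% and 47.3%. The counts by position are not set beside all events, and nothing is read from them.

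In a limma fit of the log2 ratio of the 2 forms over all 17873 events and 9 libraries, at an adjusted p of at most 0.05, 18 events (0.101%) were called for DHX34 against SCR, 435 (2.43%) for UPF1 against SCR and 369 (2.06%) for UPF1 against DHX34. Of the listed members, 2 of 98 were called for DHX34 and 71 of 232 for UPF1. At an unadjusted p under 0.05 the members numbered 63 and 184, where 10.5% and 16.4% of all events did so. The 2 called for DHX34, named after their values were seen, were NPIPB12 and METTL7A, which both had under 5 TPM. NPIPB12 went from 0% in all SCR libraries to 98.5%, 95.9% and 89.6% with DHX34 siRNA and 92.9%, 98.6% and 96.1% with UPF1 siRNA. NPIPB12 belongs to a family of near-identical copies, so the assignment of its reads is uncertain. METTL7A went from 100% in SCR to 28.1%, 38.2% and 46.6% with DHX34 siRNA and 21.7%, 29.0% and 20.3% with UPF1 siRNA.

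The classes below are set by which contrast put an event on a list, so the sizes and calls in each follow in part from that choice and are given as a description. Members listed for both had a median size of 11.3 points for DHX34 and 10.7 for UPF1, and the 2 knockdowns lay a median of 2.23 points apart. None of these 46 was called between the knockdowns by limma, with 2 (4.35%) at an unadjusted p under 0.05, beside 14.1% of all events. Members listed for DHX34 alone had medians of 8.94 points for DHX34 and 4.93 for UPF1. Of these 52, too, none was called between the knockdowns, and 8 (15.4%) had an unadjusted p under 0.05, near the share of all events. Members listed for UPF1 alone had medians of 1.69 points for DHX34 and 10.3 for UPF1. Of these 186, 49 (26.3%) were called between the knockdowns, beside 2.06% of all events. Both contrasts with SCR share the same 3 control libraries, so an SCR library that departs from the others moves both, and no agreement between them is read from these values.

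**Figure D2:**
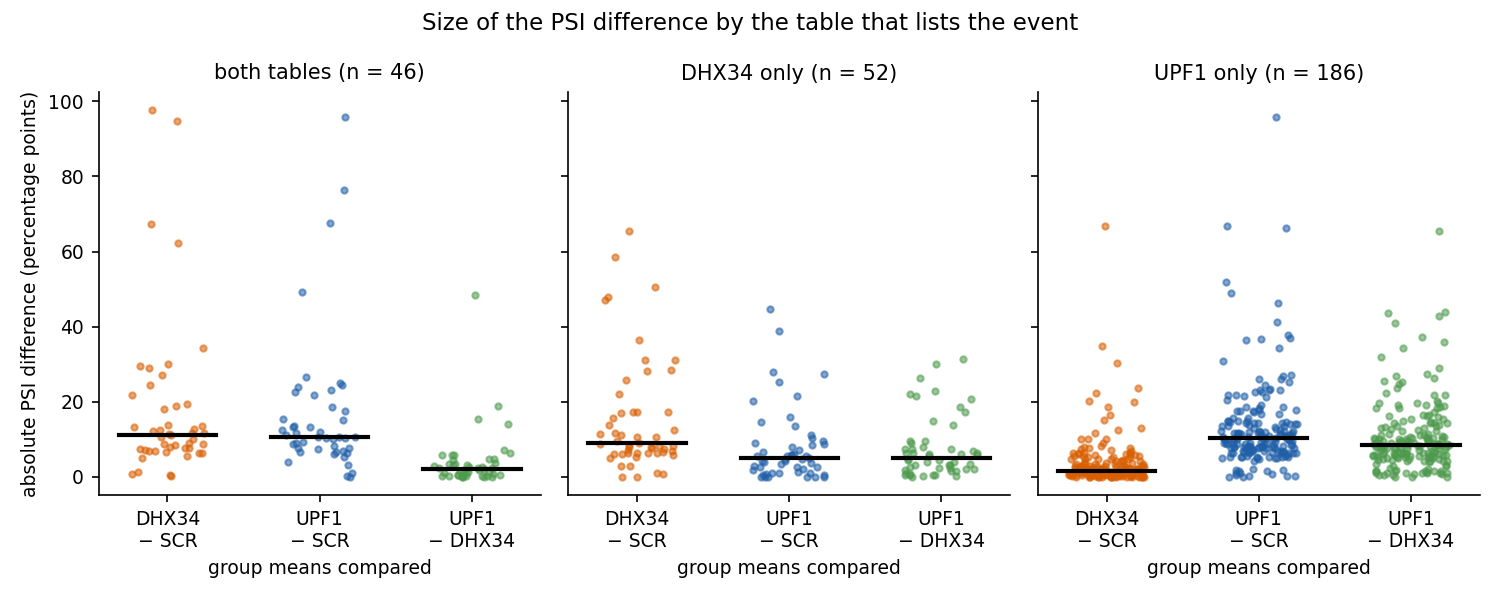
Absolute PSI difference in percentage points between group means (each point 1 measured member, black bars the medians) for DHX34 minus SCR, UPF1 minus SCR and UPF1 minus DHX34, in members listed for both knockdowns (n = 46), for DHX34 only (n = 52) and for UPF1 only (n = 186). Medians in the left panel are 11.3, 10.7 and 2.23 points, and in the right panel 1.69, 10.3 and 8.41 points.

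Among members listed for both, the 8 named by size at 10 TPM or more all changed a stretch that is coding in at least 1 transcript. In all 8 the transcripts of the 2 forms also differed in other introns, so their PSI does not isolate the splice site. HUWE1, a large E3 ubiquitin ligase, had a PSI of 47.3%, 55.9% and 45.2% in SCR, 75.2%, 78.0% and 76.7% with DHX34 siRNA and 70.9%, 77.3% and 73.5% with UPF1 siRNA. The longer exon, which adds 45 bases at the weaker of the sites shown above, thus held the larger share in all 6 knockdown libraries. The mean TPM of the longer form was 10.8 in SCR, 18.4 with DHX34 siRNA and 15.9 with UPF1 siRNA, and that of the shorter form 11.1, 5.6 and 5.67. In TPM the median gene stood higher than in SCR by 0.17 on the log2 scale with DHX34 siRNA and 0.21 with UPF1 siRNA, so differences in TPM are read beside that shift, which does not touch the PSI.

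SHMT2, the mitochondrial serine hydroxymethyltransferase, had a PSI of 25.2%, 40.1% and 46.1% in SCR, 53.5%, 66.8% and 56.2% with DHX34 siRNA and 57.9%, 60.1% and 68.6% with UPF1 siRNA. The SCR libraries themselves spanned 20.8 points, and all knockdown libraries were above them. Of its longer form, 97.5% by TPM came from transcripts without a defined reading frame. In HIPK1, a nuclear protein kinase with the tandem sites shown above, the first AG was used at 64.1%, 72.0% and 72.2% in SCR, 88.6%, 99.0% and 94.3% with DHX34 siRNA and 91.6%, 98.5% and 83.7% with UPF1 siRNA. HCFC1, a transcriptional coregulator with the same AGcAG arrangement, went the other way, from 45.1%, 32.8% and 40.5% to 24.3%, 19.1% and 18.5% and to 21.2%, 22.2% and 19.0%. In both genes the choice adds or removes 3 bases of coding sequence.

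EP400, a chromatin remodelling ATPase, used the longer exon at 66.9% ± 1.78 in SCR, 84.9% ± 2.07 with DHX34 siRNA and 84.5% ± 2.00 with UPF1 siRNA (SD, n = 3). USP34, a ubiquitin protease, had 55.1% ± 2.15, 84.7% ± 4.57 and 78.3% ± 6.65. POLR1B, a subunit of RNA polymerase I, used the longer exon less, with 55.8% ± 7.13, 36.4% ± 2.26 and 31.8% ± 4.31. IPO9, a nuclear import receptor, had 76.5% ± 3.81, 89.2% ± 9.42 and 90.0% ± 8.98, and 1 library of each knockdown was at 100%. RPL22L1 was the member of this class in which the knockdowns lay on opposite sides of SCR. Its tandem 3′ sites, 3 bases apart, were at 61.4% ± 3.46 in SCR, 56.3% ± 4.77 with DHX34 siRNA and 71.7% ± 0.642 with UPF1 siRNA, and the DHX34 and SCR libraries overlapped.

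**Figure D3:**
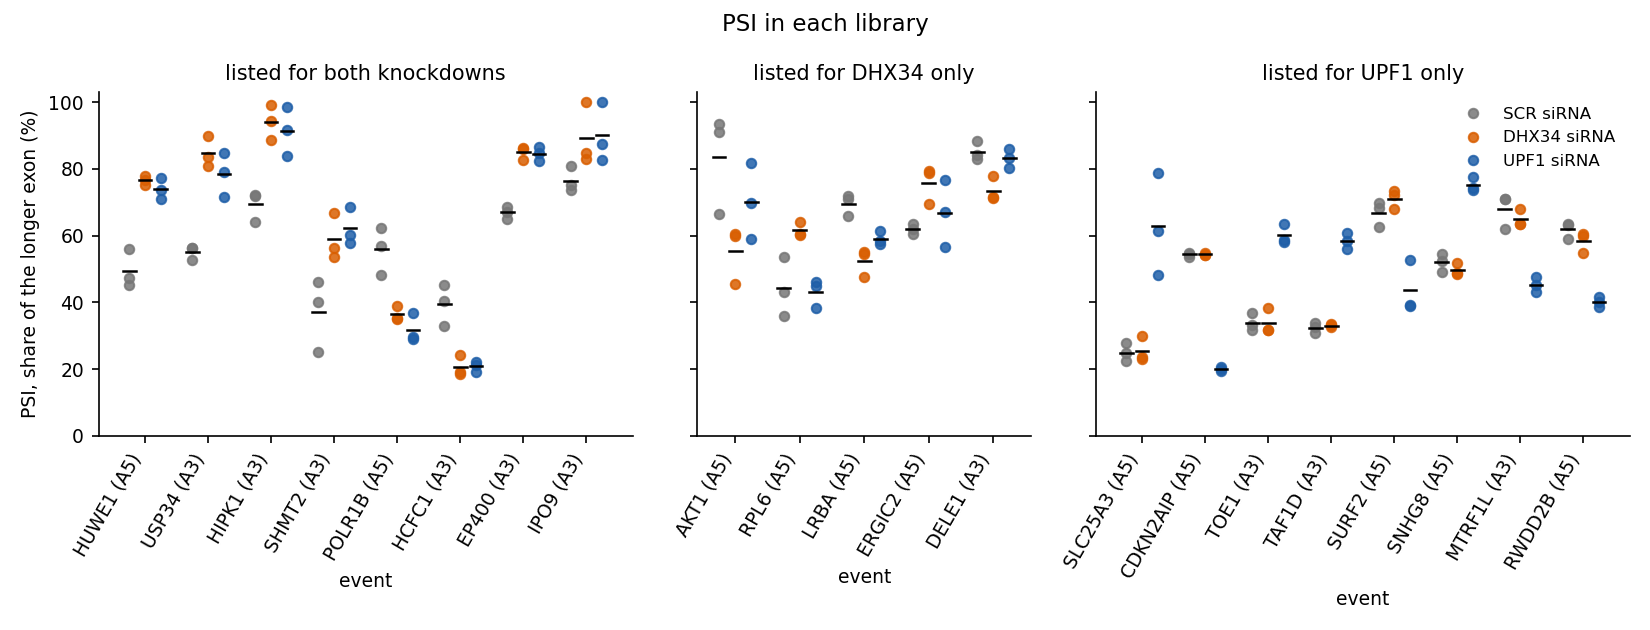
PSI (%, share of the longer exon) of the named events in each library, with 1 point per library and a black bar at the mean of the 3 libraries, for SCR (grey), DHX34 siRNA (orange) and UPF1 siRNA (blue). In the left panel both knockdowns lie on the same side of SCR, and in the right panel the DHX34 libraries lie with SCR, as for CDKN2AIP at 54.3% and 54.4% against 20% with UPF1 siRNA.

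The 5 members described here that were listed for DHX34 alone differed in where their UPF1 libraries lay. AKT1, a serine-threonine kinase of growth signalling, had a PSI of 66.5%, 91.2% and 93.3% in SCR, 45.4%, 60.5% and 60% with DHX34 siRNA and 81.6%, 59.0% and 69.7% with UPF1 siRNA, at 5′ sites 992 bases apart in untranslated sequence. The UPF1 libraries overlapped both other groups. LRBA, a protein of vesicle trafficking, had 69.5% ± 3.23, 52.3% ± 4.06 and 59.1% ± 1.98 in SCR, DHX34 and UPF1 libraries, with no overlap between any pair of groups. Of its longer form, 69.5% by TPM came from retained-intron transcripts.

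The other members of this class described here were RPL6, DELE1 and ERGIC2. RPL6, a protein of the large ribosomal subunit, had 35.9%, 43% and 53.5% in SCR, 60.3%, 60.3% and 64.2% with DHX34 siRNA and 44.9%, 38.3% and 46.0% with UPF1 siRNA at 5′ sites 162 bases apart in untranslated sequence. DELE1, a mitochondrial stress relay protein, had 85.1% ± 2.75, 73.5% ± 3.68 and 83.1% ± 2.77. In these 2 the DHX34 libraries stood apart from the UPF1 libraries as well as from SCR. ERGIC2, a protein of the secretory pathway, had 62.0% ± 1.47, 75.8% ± 5.43 and 66.7% ± 10.0, with UPF1 libraries from 56.6% to 76.6%. Its shorter form is NMD-annotated and had 8.65 TPM in SCR and 5.15 TPM with DHX34 siRNA.

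Among members listed for UPF1 alone, CDKN2AIP, a regulator of the p53 pathway, had a PSI of 54.8%, 54.5% and 53.7% in SCR, 54.2%, 54.0% and 54.8% with DHX34 siRNA and 19.3%, 20.1% and 20.6% with UPF1 siRNA. The form with the shorter exon, whose 5′ site is the stronger of the pair above, went from 5.87 TPM in SCR to 25.1 TPM with UPF1 siRNA, while the longer form stood at 6.99 and 6.27 TPM. The 31 bases between the sites are not a multiple of 3.

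TAF1D, a subunit of the RNA polymerase I initiation complex SL1 and host of small nucleolar RNAs, held 5 measured members, all listed for UPF1 alone. The largest, with 3′ sites 86 bases apart, was at 32.7%, 30.8% and 33.7% in SCR, 33.4%, 33.2% and 32.5% with DHX34 siRNA and 60.9%, 56.0% and 58.3% with UPF1 siRNA. Its longer form consists of NMD-annotated transcripts and went from 11.4 to 35.3 TPM between SCR and UPF1 libraries, and the shorter form from 23.9 to 25.1 TPM. The 5 events share transcripts, so their values are not separate observations. TOE1, a 3′ exonuclease that matures small nuclear RNAs, held 4 such events, the largest at 36.9%, 33.2% and 31.6% in SCR, 31.6%, 31.6% and 38.3% with DHX34 siRNA and 58.6%, 58.2% and 63.5% with UPF1 siRNA.

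SLC25A3, the mitochondrial phosphate carrier, had the largest difference of the class among members at 10 TPM or more without overlap. Its PSI was 24.7%, 27.8% and 22.3% in SCR, 23.8%, 22.9% and 30% with DHX34 siRNA and 78.8%, 61.4% and 48.2% with UPF1 siRNA. The NMD-annotated form with the longer exon went from 1.68 to 10.3 TPM, and the same form paired with the main form of the gene gave a second member, whose longer exon held 795 TPM in SCR and whose PSI fell by 1.14 points with UPF1 siRNA. SURF2, MTRF1L and RWDD2B used the longer exon less with UPF1 siRNA, with differences of -23.2, -22.6 and -21.9 points and with DHX34 means within 5 points of SCR in each.

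**Figure D4:**
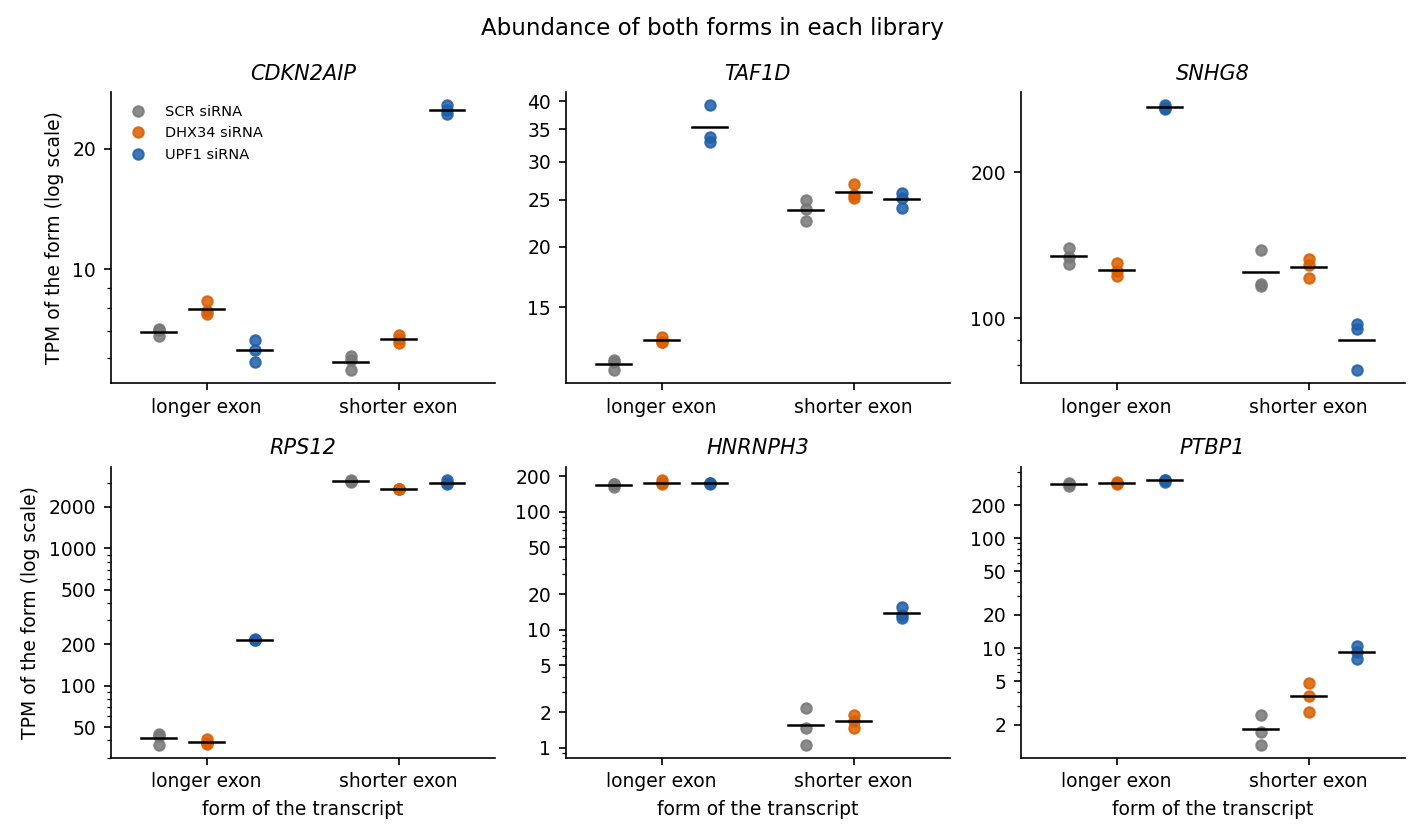
TPM (log axis) of the form with the longer and the form with the shorter exon in each library, with a black bar at the mean of 3, for 6 members (per gene the one with the largest UPF1 change in the form ratio at 10 TPM or more) in SCR (grey), DHX34 siRNA (orange) and UPF1 siRNA (blue) libraries. In each gene 1 form stands higher with UPF1 siRNA than in SCR, as for RPS12 (41.6 TPM in SCR and 216 TPM with UPF1 siRNA), and in SNHG8 the other form is lower (124 and 90.1 TPM).

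Small nucleolar RNA host genes and other long non-coding RNAs formed a group among the members listed for UPF1, named after their values were seen. Of the 19 members in long non-coding RNA genes listed for UPF1, 17 were listed for UPF1 alone and 2 for both. The PSI was higher in 13 of the 19 (68.4%) with UPF1 siRNA, near the 150 of 232 (64.7%) of all members listed for UPF1. SNHG8 had a PSI of 49.2%, 54.5% and 52.3% in SCR, 51.7%, 48.6% and 48.7% with DHX34 siRNA and 74.3%, 73.6% and 77.6% with UPF1 siRNA. The form with the longer exon went from 134 to 272 TPM and the shorter went from 124 to 90.1 TPM. SNHG29 held 4 members with differences between -9.50 and 9.08 points for UPF1 and between -0.69 and 2.84 for DHX34, all of them without overlap between UPF1 and SCR libraries. SNHG12, SNHG15 and SNHG17 had lower PSI with UPF1 siRNA, by differences of -12, -8.38 and -5.37 points. The 3 members in GAS5 differed by 0.953, 0.0545 and 4.3 points with UPF1 siRNA. The longer form of the event with the smallest difference was at 651 TPM in SCR, 451 with DHX34 siRNA and 2250 with UPF1 siRNA.

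Forms annotated as NMD substrates were followed next. One form, and not the other, held at least 1 transcript with this annotation in 93 of the 284 members. Among the 81 such members listed for UPF1, the share of the NMD form was higher in the UPF1 knockdown in 63, with a median change of 8.06 points, beside 48.7% of 5995 events of this kind and a median of 0 points. Among the 23 listed for DHX34 it was higher in that knockdown in 11, with a median of -0.85 points, beside 44.7% of all. Both counts are over selected members and carry no test. The median change in log2 TPM with UPF1 siRNA was 0.99 for the NMD form of the UPF1 members and 0.13 for the other form. With DHX34 siRNA the medians of the same forms were 0.15 and 0.00.

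The members were then split by which form was the NMD form. Where it was the form with the longer exon, its share was higher with UPF1 siRNA in 46 of 51 members, with a median of 10.5 points, and where it was the shorter form, in 17 of 30, with a median of 1.62 points. For the members listed for DHX34 the counts were 8 of 13 and 3 of 10. When a form counted as NMD only if more than 50% of its TPM came from NMD-annotated transcripts, the counts were 65 of 73 for UPF1 and 8 of 14 for DHX34. Of the 81 UPF1 members 22 were called with a higher and 4 with a lower share of the NMD form. Over all measured events 2.43% were called for UPF1. The split and the calls by direction were not counted over all events with 1 NMD form. The members were chosen on the same contrast, so nothing is read from either. The 4 with a lower share, named after their values were seen, were TUBA1B (the event with 128 bases, at 1.57 TPM), HUWE1, SMNDC1 and PIH1D1. In HUWE1 the form with the NMD-annotated transcript drew 94.9% of its TPM from protein-coding transcripts.

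**Figure D5:**
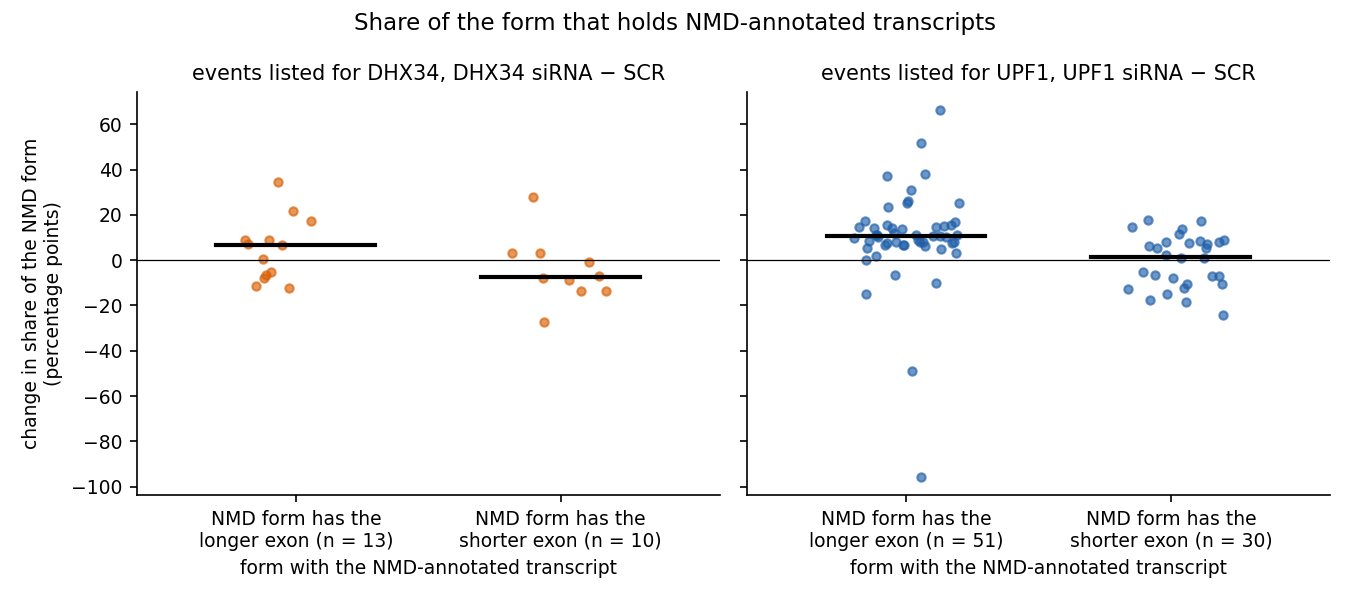
Change in the share of the NMD-annotated form (percentage points, knockdown mean minus SCR mean), each point 1 member and black bars the medians, split by whether that form has the longer or the shorter exon, for members listed for DHX34 (left) and UPF1 (right). The right panel has 46 of 51 members above 0 where the NMD form has the longer exon and 17 of 30 where it has the shorter one.

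Examples outside the named classes, chosen after their values were seen, show the range of levels. NTMT1, a protein N-terminal methyltransferase, had a PSI of 93.9%, 92.6% and 93% in SCR and 78.9%, 77.6% and 79.2% with UPF1 siRNA, and its shorter NMD form went from 8.73 to 34.1 TPM. PPIA, the abundant peptidyl-prolyl isomerase cyclophilin A, went from 13.0%, 13.7% and 13.9% to 27.7%, 27.7% and 27.5%. In TMEM208 the NMD form with the longer exon had 3.66%, 2.99% and 2.94% in SCR and 16.2%, 14.1% and 15.8% with UPF1 siRNA. SCO1, a copper chaperone of cytochrome oxidase, has tandem AG sites 3 bases apart, of which the first gives the NMD form, at 8.80%, 11% and 12.2% in SCR and 26.0%, 26.3% and 24.5% with UPF1 siRNA. In all 4 genes the DHX34 mean was within 5 points of SCR.

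Cytosolic ribosomal protein genes held 14 members in 10 genes. RPS12, a protein of the small subunit, had a PSI of 1.22%, 1.38% and 1.39% in SCR, 1.36%, 1.40% and 1.5% with DHX34 siRNA and 6.85%, 6.72% and 6.56% with UPF1 siRNA, where the longer form is a retained-intron transcript. RPL21 held 2 members that share the same longer form, which went from 6.95 TPM in SCR to 4.81 with DHX34 siRNA and 17.9 with UPF1 siRNA, so that the PSI of the 151-base event was 12.2%, 8.40% and 30.8%. The 67-base event of RPL22L1, whose longer form is NMD-annotated, stood at 56.3% ± 2.27, 55.1% ± 4.51 and 70.6% ± 2.00. In RPL27A the libraries scattered widely, with 38.2%, 69.0% and 50.8% in SCR, 64.5%, 100% and 96.8% with DHX34 siRNA and 66.6%, 63.3% and 74.4% with UPF1 siRNA, and no pair of groups with SCR was separate.

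The other members of this family had smaller differences or overlapping groups. RPS27A was at 86.9% ± 2.94 in SCR, 79.1% ± 6.25 with DHX34 siRNA and 79.4% ± 2.79 with UPF1 siRNA. The second RPL6 event, with sites 82 bases apart, was at 61.3% ± 9.62, 50.7% ± 2.94 and 46.0% ± 7.59, with overlap between groups. The 2 events of RPL13 share their shorter form, had PSI above 90% in every library and differed by at most 2.26 points. RPL30, RPL41 and RPL12 had a PSI above 99% in every library and moved by at most 0.15 points. Reads of these genes can also match their many processed pseudogenes, and how the counting split them was not tested.

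A list of 68 genes of splice site recognition, of the second splicing step and of splicing regulation was set beside the members. It holds the U1 snRNP and its helpers at the 5′ site, the factors of the 3′ site and branch point, the second step factors, the SR proteins and the hnRNPs. Members lay in 6 of these genes. HNRNPH3, an hnRNP of the H family, held 3 events, all listed for UPF1 alone. Its shorter form at 5′ sites 362 bases apart went from 1.57 TPM in SCR and 1.68 TPM with DHX34 siRNA to 14.0 TPM with UPF1 siRNA, and the PSI from 99.1% ± 0.310 to 92.6% ± 0.763. The 45-base event of the same gene was at 51.3% ± 0.348 in SCR and 44.6% ± 0.566 with UPF1 siRNA. PTBP1, a repressor of exons next to pyrimidine tracts, had an NMD form with 1.83 TPM in SCR, 3.69 TPM with DHX34 siRNA and 9.21 TPM with UPF1 siRNA beside a main form of 310 TPM in SCR. The same NMD form against a minor form gave a second PTBP1 member at 5.85 TPM, with a PSI of 67.3% ± 19.2 in SCR and 92.4% ± 6.26 with UPF1 siRNA.

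In HNRNPL both knockdowns lay below SCR, with a PSI of 90.6%, 86.9% and 89.2% in SCR, 83.8%, 81.9% and 84.0% with DHX34 siRNA and 82.6%, 83.3% and 82.1% with UPF1 siRNA. SRSF7, an SR protein, was at 44.3% ± 0.781, 45.9% ± 0.518 and 49.3% ± 0.320. The members in SRSF2 and TRA2A fell under 10 TPM and were named after their values were seen. SRSF2 had 15.6%, 12.5% and 32.2% in SCR and 6.34%, 100% and 31% with DHX34 siRNA, so that its mean difference of 25.7 points rests on replicate 2 of the knockdown, without which the log2 ratio of the forms differs by -0.43. TRA2A was at 89.9% ± 7.67 in SCR, 74.7% ± 4.36 with DHX34 siRNA and 75.9% ± 5.34 with UPF1 siRNA.

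Total expression was tested with edgeR over all genes at an adjusted p of at most 0.005, with TMM scaling, under which the median gene changed by 0.02 on the log2 scale in both contrasts. Of the 68 listed genes, 2 were called higher and 7 lower with DHX34 siRNA, beside 5.54% and 4.86% of 17004 genes. With UPF1 siRNA 7 were called higher and 21 lower, beside 12.4% and 12.9% of 17184 genes, and 8 of the 11 hnRNPs were among the lower. The balance of higher and lower calls depends on the scaling. By limma on gene TPM, which is not rescaled between libraries, 4 were called higher and 0 lower with DHX34 siRNA, where 5.02% and 0.659% of all genes were called, and 21 higher and 1 lower with UPF1 siRNA, where 19.2% and 1.69% were called. No hnRNP was then called lower in either contrast, and 2 were called higher with UPF1 siRNA.

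The median log2 fold change of the list was -0.06 for DHX34 and -0.07 for UPF1 by edgeR, where all genes had 0.02. By TPM it was 0.12 and 0.19, where all genes had 0.17 and 0.21. The list median was the lower in each case, and the gaps were not tested. A scaling factor moves all genes of a library alike, so the same order under both scalings is not separate evidence. U2AF1, the subunit that reads the AG of the 3′ site, differed by a log2 value of -0.38 with DHX34 siRNA by edgeR (standard error 0.05, adjusted p by edgeR 0.000388) and by -0.23 by TPM, where it was not called (adjusted p by limma 0.0255). HNRNPA1 differed by -0.34 and -0.19, and PHF5A of the SF3b complex by -0.32 and -0.16, called by edgeR and not by limma on TPM. PRPF8 and SDE2 were called higher with DHX34 siRNA under both, by 0.20 each in edgeR and by 0.33 and 0.37 in TPM. With UPF1 siRNA all 7 genes called higher by edgeR were also called higher by TPM. They were U2AF1L4, RBM39, TIA1, PRPF39, CACTIN, ISY1 and TRA2B. U2AF1L4 and RBM39 differed by 0.93 and 0.31 in edgeR and by 1.17 and 0.54 in TPM. SNRPC of the U1 snRNP was called lower under both, by -0.34 in edgeR and -0.12 in TPM. With DESeq2, 4 of the list were called higher and 16 lower for DHX34, beside 8.40% and 9.33% of all genes. For UPF1 the DESeq2 counts were 7 and 28, beside 13.9% and 15.8%.

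The totals of the host genes were read from the same fits. Of 243 host genes tested for DHX34, 15 (6.17%) were called higher and 44 (18.1%) lower by edgeR, beside 5.54% and 4.86% of all genes. Of 242 tested for UPF1, 59 (24.4%) were called higher and 60 (24.8%) lower, beside 12.4% and 12.9%. By limma on gene TPM the counts were 18 higher and 8 lower for DHX34, beside 5.02% and 0.659% of all genes. For UPF1 they were 109 and 13, beside 19.2% and 1.69%. Of the UPF1 calls by TPM, 89.3% were higher among host genes and 91.9% among all genes. The host gene calls come from the libraries that also chose the members, and nothing is read from them.

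Not every listed event had a sizeable difference when recomputed. Of the members listed for DHX34, 10 of 98 differed by under 5 points, and of those listed for UPF1, 21 of 232. PRKCB had 100% in every library, since its shorter form had 0 TPM, and RPL12 and the 281-base event of GAS5 moved by under 0.1 points. Named for their place at the limit, the members just past the 5 points that the study required were PHPT1 (5.01 points for UPF1), PSMD7 (-5.03 for DHX34) and SRSF7 (5.03 for UPF1). Unlisted events just short of it were CHML, CANX and NUP98, with -5.00, -4.99 and -4.98 points for DHX34. The limit alone does not part listed from unlisted events. With recomputed PSI, 3089 of all 17873 measured events (17.3%) differed by at least 5 points for DHX34 and 3681 (20.6%) for UPF1.

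Spread within a group was large in some members. A range over 20 points among the SCR libraries was found in 20 of 284, and a range over 50 points in at least 1 group in 16, of which 14 had under 10 TPM. These include NPIPB3, TUBA1B (the 58-base event), STX1A and FAM78A. In such events 1 library can set the mean of its group.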

How the data were processed

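RNA was measured in 9 poly(A) libraries of K562 cells, 3 for each siRNA by the labels. The authors quantified reads with salmon 1.5.2 against Ensembl 93 on GRCh38, and the deposited tables give each transcript's TPM and expected count. The splicing lists are SUPPA2 2.3 results with dPSI and p-values that were not used. Only event names were taken. The members and lists were chosen with earlier results of these data known.

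Transcripts were joined by identifier to GENCODE 44 (97.9% of 203027 matched, 85.8% with the same length). An event had both introns in 1 gene. PSI was the TPM of transcripts with the shorter intron over that of both sets. Events with a mean of at least 1 TPM were fitted with limma 3.58.1 on log2 ratios with a pseudocount of 0.1 TPM over all 9 libraries. Expected counts summed per gene and rounded were tested with edgeR 4.0.16 by quasi-likelihood (filterByExpr, minimum count 10), each knockdown with SCR. All p-values were adjusted by Benjamini-Hochberg. Replicates share a number but nothing in the labels ties them to 1 culture, so p-values measure the spread between these libraries. On simulated data with 200 of 17873 events changed by 2 on the log2 scale in the DHX34 libraries, limma called 45.5% of them with 5 false calls.

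Depth ran from 73478797 to 103625443 expected counts, and the lowest count behind a member's PSI in any library was 5.98. Named events had at least 10 TPM and no overlap with SCR in the contrast that lists them, 1 per gene: the 8 largest listed for both, the 6 for DHX34 alone and the 8 for UPF1 alone, with all members in cytosolic ribosomal protein genes and in the splice site list at that level. The 3 smallest members and the 3 unlisted events closest under 5 points were added. Alternatives were other pseudocounts, other limits on TPM, edgeR's diffSpliceDGE, DESeq2 1.42.0, limma on log2 of gene TPM (added after seeing the data), transcripts of unchanged length, a replicate block and leaving out each library. The chromosome 8 member is given without sequence. One member that met the rule for DHX34 alone, and some site sequences, are not reported here.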

Additional observations from a re-analysis of the deposited data

How the results depend on the processing

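Calls by limma depended on the settings, and the cause was not tested. With a pseudocount of 1 TPM there were 160 calls for DHX34, 1440 for UPF1 and 1095 between the knockdowns (members 13, 136 and 93), and with 0.01 TPM 32, 277 and 237. No limit on TPM gave 45 for DHX34 with 4 members. Transcripts of the same length only gave 5, 119 and 115, with 21 members for UPF1 and 16 between the knockdowns. The diffSpliceDGE test gave 39 with 8 members, 161 and 127. Leaving out 1 library gave 2 to 21 calls for DHX34 (members 0 to 4), 58 to 359 for UPF1 (members 18 to 62) and 75 to 293 between the knockdowns (members 15 to 41). The count for DHX34 moved by over 1.5 times without SCR replicate 1 (the fewest) and without each DHX34 or UPF1 library, that for UPF1 without each SCR or UPF1 library (the fewest without UPF1 replicate 2), and that between the knockdowns without each DHX34 or UPF1 library.

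Same-numbered libraries did not deviate together (r from -0.03 to 0.02 for events and from -0.10 to 0.04 for genes). This check cannot tell whether they share a culture or a day of preparation. With a replicate block 1, 69 and 55 events were called, with 0, 18 and 15 members, and 1007 genes for DHX34 and 4345 for UPF1.

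Genes for DHX34 numbered 1768, against 3396 without a filter, 3015 by DESeq2, 966 by limma on gene TPM (chosen after seeing the data), 4403 at an adjusted p of 0.05 and 781 (without SCR replicate 3) to 1785 when 1 library was left out, where each library but DHX34 replicate 3 lowered it by over 1.5 times. For UPF1 they numbered 4345, against 6917 at 0.05. The share of calls that were higher was 53.3% for DHX34 and 49.0% for UPF1 by edgeR, and 88.4% and 91.9% by limma on gene TPM. Counts of members without overlap and of higher NMD forms kept within 1.5 times under every alternative run for them. The shares without overlap still fell with transcripts of the same length only. For DHX34 they were 68 of 98 in the main setting and 48 of 92 there, and for UPF1 204 of 232 and 138 of 220. For the log2 ratio of named events, 849 of 975 values kept direction and side of the threshold, 97 lost a call and 26 gained one. The direction turned in 3: SRSF2 for DHX34 without DHX34 replicate 2 (-0.43, with up to 3.50 without other libraries) and by diffSpliceDGE (-0.17), and RPL30 for UPF1 without UPF1 replicate 1 (-0.12, with up to 0.58 without other libraries). Low TPM limits the precision of PSI, since 1 form then rests on few counts.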
